A study of Homo sapiens with 6 samples.

Results

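A set of 10 long non-coding RNA genes, described in the literature as retained in the nucleus or tied to chromatin, was followed in LN229 cells, an established human glioblastoma line. They are MALAT1, NEAT1, KCNQ1OT1, MEG3, H19, PVT1, HOTAIR, FTX, JPX and NORAD. They were taken by gene name, with earlier results of these data known, and are 10 of the 58735 genes in the deposited count table. The filter on low counts was passed by 9 of them. The 3 HSD52_OE libraries came from LN229 cells labelled as overexpressing HSD52, itself a long non-coding RNA gene, and the 3 control libraries came from LN229 cells labelled WT. No other treatment, time or allele is labelled. An empty vector in the control cells, a clonal or pooled origin of the overexpressing cells and separate cultures for the replicates are all unstated, so p-values cover only the spread among these libraries, part of which may be technical. No nuclear or cytoplasmic fraction was measured, so the location of each RNA comes from background knowledge only, and NORAD and H19 are also known as largely cytoplasmic RNAs.

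Many long non-coding RNAs act through the proteins they hold or through the act of their own transcription. MALAT1 collects in nuclear speckles, where splicing factors are stored, and the long form of NEAT1 is the scaffold of paraspeckles, bodies that hold SFPQ and NONO. KCNQ1OT1, H19 and MEG3 are imprinted, which means that they are transcribed from a single parental copy, and KCNQ1OT1 silences neighbouring genes on its own chromosome copy. FTX and JPX lie in the X-inactivation centre next to XIST, the RNA that coats the inactive X chromosome. NORAD binds Pumilio proteins such as PUM2, PVT1 is the neighbour of MYC, and HOTAIR is transcribed from the HOXC cluster and is described as a partner of the Polycomb complex PRC2.

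Several of these functions can be read in the RNA sequence, and the stretches below are shown for that reason. The ends of MALAT1 and of the long NEAT1 RNA have no added poly(A) tail. RNase P cuts them, and a triple helix between U-rich motifs and an A-rich tract closes the end. In the GENCODE 29 transcripts MALAT1-202, bases 8250 to 8355 of 8708, and NEAT1-202, bases 22633 to 22743 of 22743, the U-rich motifs and the A-rich tract are in capitals (T stands for U). The MALAT1 transcript model runs on for 353 bases after the tract.
MALAT1: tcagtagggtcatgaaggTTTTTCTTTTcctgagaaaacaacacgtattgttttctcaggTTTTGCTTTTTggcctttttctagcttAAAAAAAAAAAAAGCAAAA
NEAT1: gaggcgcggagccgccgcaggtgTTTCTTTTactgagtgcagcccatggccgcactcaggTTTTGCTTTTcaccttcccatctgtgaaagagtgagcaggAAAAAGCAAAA
The second U-rich motif followed within 60 bases by the A-rich tract, both in the letters of the NEAT1 line, was found in the longest transcript of 2 of 16042 long non-coding RNA genes of GENCODE 29, and these were MALAT1 and NEAT1. The libraries were made by selection on poly-T beads, so the values of both genes count the RNA that the beads held. The longest run of A was 13 bases in MALAT1-202 and 22 in NEAT1-202. Such runs are not particular to this pair. In the longest transcripts of the other RNAs they were 29 bases in KCNQ1OT1, 23 in FTX, 23 in JPX and 13 in MEG3. NORAD had 10, HOTAIR 8, PVT1 6 and H19 5. The part of these runs in what the beads held was not tested.

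NORAD carried 15 copies of the Pumilio motif TGTANATA (N is any base, read on the RNA strand, overlaps counted) in its 5339 bases, a rate of 2.81 per kb. Over the 5767 long non-coding RNA genes with a transcript of at least 1000 bases the pooled rate was 0.107 per kb, and 4 of them, NORAD included, had a rate at least as high as that of NORAD. Of the other RNAs, HOTAIR held 3 copies, FTX 7, JPX 4, NEAT1 6, KCNQ1OT1 9 and MEG3 1, each at 1.24 per kb or less, and MALAT1, H19 and PVT1 held 0. A copy of each spelling in NORAD is shown with 10 bases on either side and the motif in capitals, at bases 1140 to 1147, 1241 to 1248 and 1451 to 1458.
NORAD base 1140: ctcactactgTGTATATAgttgacaatg
NORAD base 1241: aatcacatttTGTAAATAcctttttgtt
NORAD base 1451: gtgtatatagTGTACATAaaggacagac

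FTX is also a host of microRNAs, which are cut out of its introns. RefSeq (GRCh38.p14) places these 6 mature sequences within FTX on the minus strand of the X chromosome. Capitals mark the seed, bases 2 to 8, which pairs with target messages.
hsa-miR-421: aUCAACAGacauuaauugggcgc
hsa-miR-374b-3p: cUUAGCAGguuguauuaucauu
hsa-miR-374b-5p: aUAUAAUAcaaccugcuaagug
hsa-miR-545-3p: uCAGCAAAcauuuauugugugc
hsa-miR-545-5p: uCAGUAAAuguuuauuagauga
hsa-miR-374a-3p: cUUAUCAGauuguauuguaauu
No 2 of these 6 seeds were the same. The list holds only the 3p arm of miR-374a, so the seed of its other arm was not compared. The libraries were not made for small RNA, and the MIR421 row held 0 to 4 counts per library while the MIR374A, MIR374B and MIR545 rows held 0.

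RefSeq promoter windows, 250 bases before to 50 after a start site, matched 6 of the 10 genes in 9 windows. PVT1 was left out of this search and of the search for hosted microRNAs. The 3 windows shown belong to genes that rose. They are those of MALAT1 (chr11:65497488-65497787, plus strand), NORAD (chr20:36050911-36051210, minus strand) and FTX (chrX:74293525-74293824, minus strand).
MALAT1 promoter: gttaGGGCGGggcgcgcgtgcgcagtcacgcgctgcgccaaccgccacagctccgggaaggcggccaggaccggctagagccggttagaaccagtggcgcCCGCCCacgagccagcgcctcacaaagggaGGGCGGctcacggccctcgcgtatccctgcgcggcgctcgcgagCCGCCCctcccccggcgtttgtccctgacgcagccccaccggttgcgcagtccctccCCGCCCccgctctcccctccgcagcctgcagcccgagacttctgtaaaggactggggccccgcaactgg
NORAD promoter: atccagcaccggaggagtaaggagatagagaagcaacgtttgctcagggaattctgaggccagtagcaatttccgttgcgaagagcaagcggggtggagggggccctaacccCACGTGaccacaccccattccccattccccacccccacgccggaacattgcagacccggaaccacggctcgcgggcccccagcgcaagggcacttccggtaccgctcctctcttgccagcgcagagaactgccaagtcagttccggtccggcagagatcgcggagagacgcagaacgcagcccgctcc
FTX promoter: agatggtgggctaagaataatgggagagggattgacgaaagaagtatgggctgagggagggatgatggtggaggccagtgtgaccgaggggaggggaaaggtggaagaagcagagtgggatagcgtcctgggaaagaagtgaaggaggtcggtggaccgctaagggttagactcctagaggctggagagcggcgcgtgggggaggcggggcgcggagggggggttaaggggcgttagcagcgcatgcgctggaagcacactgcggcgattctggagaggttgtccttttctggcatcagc
Capitals mark the motifs searched on both strands. One was GGGCGG, the GC box bound by SP1. Another was CACGTG, the E-box bound by MYC and USF proteins. The others were the CCAAT box, the AP-1 motif, spelled TGANTCA, and the CRE motif, spelled TGACGTCA. No pair of these motifs overlapped in the windows shown. The MALAT1 window shown held the GC box 5 times, a motif present in 45.0% of the 35116 promoter windows. The NORAD window held the E-box once, a motif in 7.26% of windows, and the FTX window held none of the 5 motifs. The other shares of windows were 34.6% for the CCAAT box, 7.71% for the AP-1 motif and 1.85% for the CRE motif. A second MALAT1 window (chr11:65498795-65499094, not shown) held 0 of the 5 motifs. NEAT1 and KCNQ1OT1 had no window, so the promoters of the RNAs that rose were not compared as a group.

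Reads summed to between 17777157 and 18917790 counts per library. HSD52 had 7 to 12 counts in the control libraries and 1252 to 1336 in the HSD52_OE libraries, which fits the labels. The share of counts in long non-coding RNA genes was 0.795% to 0.895% in control and 1.29% to 1.36% in HSD52_OE, and that in snRNA, snoRNA and misc_RNA genes was 0.0229% to 0.0258% and 0.0349% to 0.0390%. Genes with at least 1 count numbered 22855 to 23545 in control and 26359 to 26755 in HSD52_OE. None of these 3 ranges overlapped between groups (exact 2-sided permutation p = 0.1, the smallest that 3 against 3 libraries allow, and 0.15 after adjustment over 6 library measures). All 10 glioma markers had counts, among them 9243 to 15054 for NES and 54 to 155 for GFAP. The 10 summed to 3068 to 3387 CPM (counts per 1000000 reads, TMM-scaled) in control and 2921 to 2987 in HSD52_OE. Of these 10 markers 3 were higher, 4 lower and 3 not called. Fibroblast markers, which mesenchymal glioma cells also express, summed to 152 to 251 CPM in control and 68.1 to 71.5 in HSD52_OE. Of the fibroblast markers 9 of 10 were lower and 1 higher. Epithelial markers, mainly KRT8 and KRT18, summed to 118 to 137 CPM in control and 168 to 181 in HSD52_OE, with EPCAM at 0 counts except for 1 in a single library, and neuronal markers summed to 72.4 to 98.1 and 66.1 to 69.8. Endothelial and leukocyte markers summed to at most 4.21 CPM, with CD3E at 0. The part of these library differences in the results below was not tested.

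Of the 9 RNAs tested, 5 rose in HSD52_OE and 0 fell (edgeR's quasi-likelihood test, Benjamini-Hochberg adjusted p under 0.05 over the 16322 genes tested). None was lower at an unadjusted p under 0.05 or with DESeq2 either. In bulk libraries such as these, more cells holding an RNA and more RNA per cell cannot be told apart. In the same fit 25.0% of all genes were called higher and 25.6% lower, 4086 and 4173 genes, and with library totals in place of TMM scaling the split was 5337 and 2933. Among the 2081 long non-coding RNA genes tested 43.3% were called higher and 4.61% lower, so 5 of 9 has to be read against a class in which calls in that direction were common. The median log2 fold change was 0.45 over the 9 RNAs, 0.59 over long non-coding RNA genes, -0.06 over protein-coding genes and 0.01 over all genes. MALAT1, NEAT1 and KCNQ1OT1 also passed a fold of 2. Of all genes 10.5% did so in the higher direction and 3.49% in the lower, and of long non-coding RNA genes 32.2% and 1.97%. The 5 called RNAs were also the ones whose libraries did not overlap between groups, which held in the higher direction for 29.6% of all genes and 50.4% of long non-coding RNA genes, and in the lower direction for 29.3% and 6.49%.

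**Figure D1:**
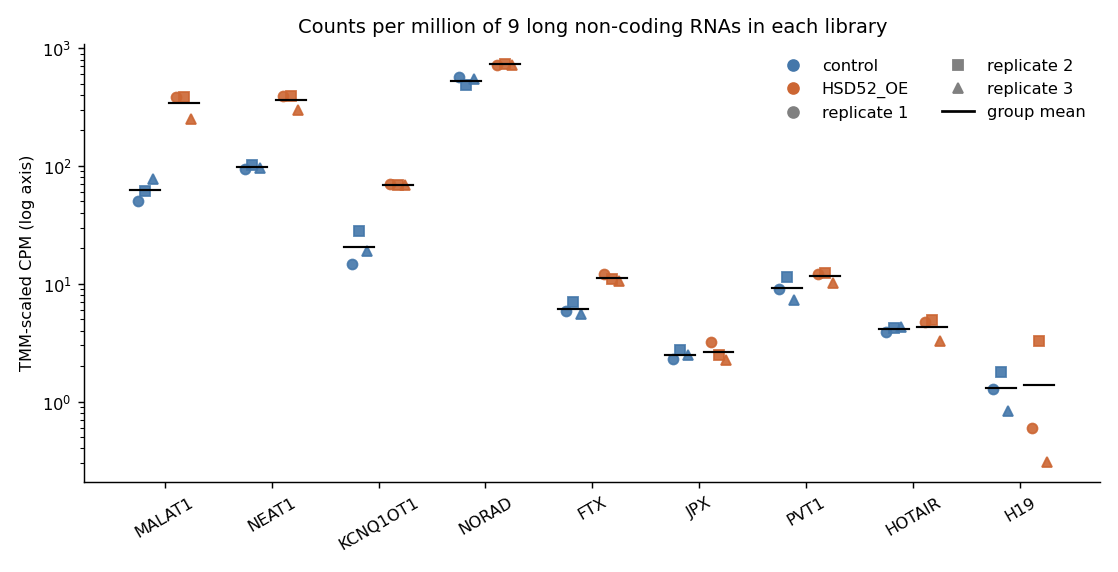
TMM-scaled CPM (log axis) of the 9 RNAs with counts in each of the 6 libraries, with a black line at the mean of each group. MALAT1, NEAT1, KCNQ1OT1, NORAD and FTX show no overlap between groups, and H19 has its highest and its lowest value in HSD52_OE.

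**Figure D2:**
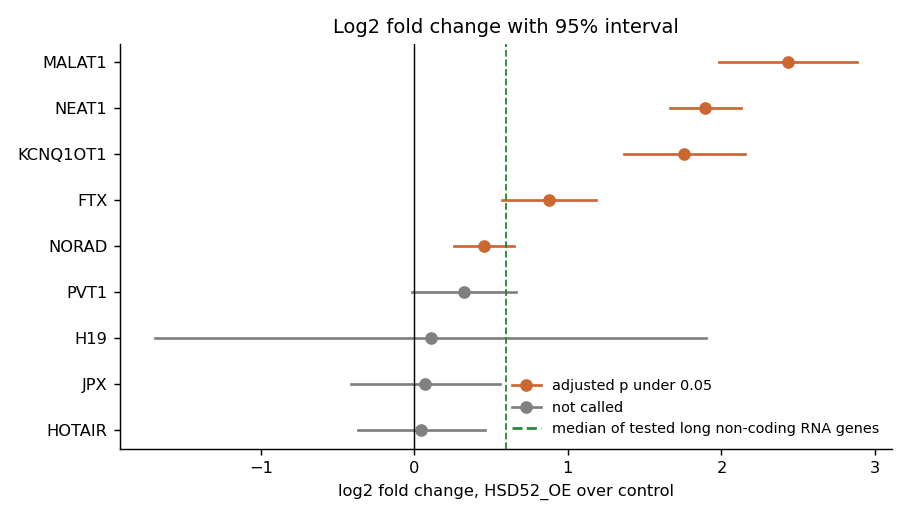
Log2 fold change of HSD52_OE over control with its 95% interval from the edgeR fit for the 9 RNAs tested. The dashed line is the median of the 2081 long non-coding RNA genes tested, 0.59, which lies below the values of MALAT1, NEAT1, KCNQ1OT1 and FTX.

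MALAT1 (ENSG00000251562, hg38, chr11:65497688-65506516, plus strand, a lincRNA gene) rose 5.40-fold, the largest change of the 10. The control libraries held 50.7, 61.1 and 76.9 CPM and the HSD52_OE libraries 383, 386 and 251. Every HSD52_OE library lay above every control library, and HSD52_OE replicate 3 was the lowest of its group. The mean went from 62.9 ± 13.2 to 340 ± 76.7 CPM (SD, n = 3 per group), a log2 fold change of 2.43 ± 0.20 (SE; edgeR, adjusted p = 1.32e-05), with a 95% interval of 1.98 to 2.88. Of the long non-coding RNA genes tested, 94.2% had a smaller log2 fold change than MALAT1. The spread was of like size in both groups, 21.0% of the mean in control and 22.6% in HSD52_OE.

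NEAT1 (ENSG00000245532, chr11:65422774-65445540, plus strand, lincRNA), which lies just before MALAT1 on the same strand, rose 3.72-fold. Its libraries held 94.2, 103 and 96.1 CPM in control and 393, 396 and 300 in HSD52_OE. The groups did not overlap, and HSD52_OE replicate 3 was again the lowest of its group. The mean went from 97.6 ± 4.36 to 363 ± 54.8 CPM, a log2 fold change of 1.90 ± 0.11 (adjusted p = 5.82e-09). MALAT1 CPM over NEAT1 CPM was 0.538, 0.596 and 0.801 in control and 0.973, 0.973 and 0.838 in HSD52_OE. These ratios did not overlap between groups either, with control replicate 3 and HSD52_OE replicate 3 closest to each other. Gene counts do not separate the short polyadenylated NEAT1 RNA from the long paraspeckle form, since both share their start.

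**Figure D3:**
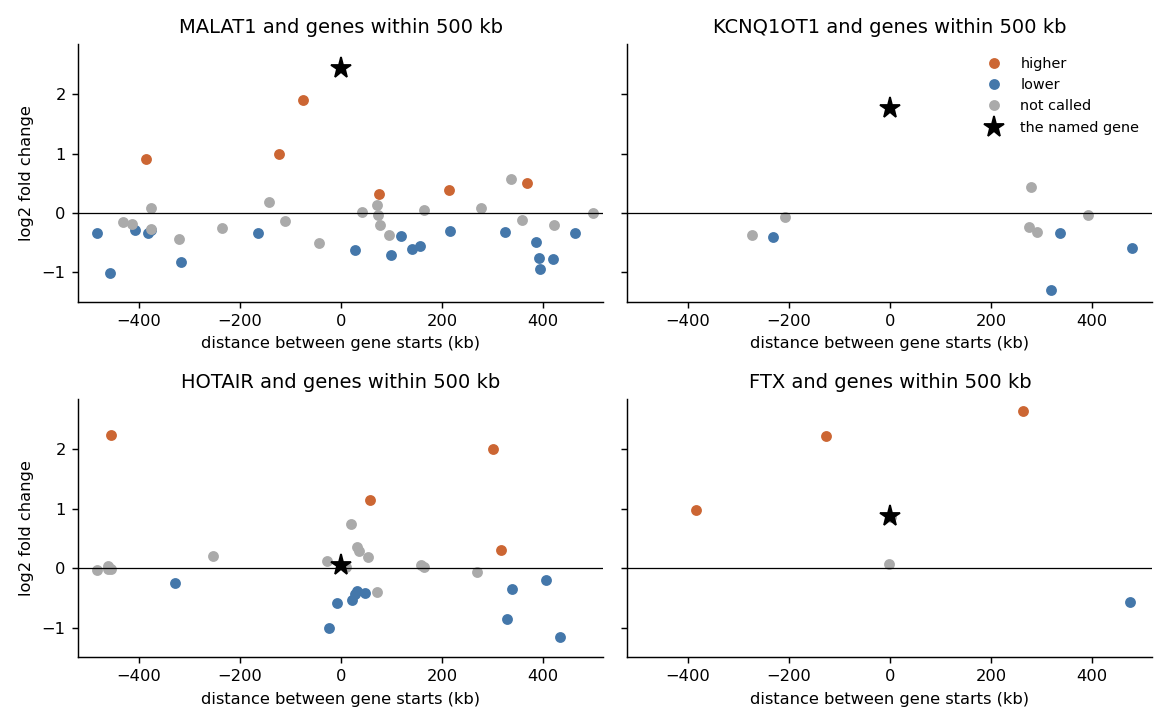
Log2 fold change (vertical axis) of tested genes within 500 kb of MALAT1, KCNQ1OT1, HOTAIR and FTX, coloured by call. The horizontal axis is the distance in kb between the lowest coordinates of the genes, positive towards higher coordinates. For the minus-strand genes KCNQ1OT1, HOTAIR and FTX that coordinate is where transcription ends. Around MALAT1 the gene at the height of 1.90 is NEAT1, and most called neighbours lie below 0.

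The other genes around this pair moved in both directions, with more called lower than higher. Of the 45 genes tested within 500 kb of MALAT1, 6 rose, NEAT1 among them, 19 fell and 20 were not called (median -0.27 on the log2 scale). Over all genes 25.0% were called higher and 25.6% lower. Here and below, distances run between the lowest coordinates of genes, whatever their strand. SLC25A45, a mitochondrial carrier gene, rose by 0.99 (adjusted p = 1.59e-05). FRMD8, between SLC25A45 and NEAT1, and LTBP3, a TGF-beta binding protein gene, had log2 fold changes of -0.13 and 0.01 and were not called.

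Per kb of annotated length the order of levels changed. All these levels are of RNA held by the poly-T beads, so levels in the cells cannot be ranked from them. On the scale of CPM per kb, MALAT1 went from 7.12 ± 1.50 to 38.5 ± 8.69 and NEAT1 from 4.29 ± 0.191 to 15.95 ± 2.41. The length used for NEAT1, 22767 bases, takes in its long form. The order of MALAT1 and NEAT1 therefore depends on that length, since the short polyadenylated NEAT1 RNA is not counted apart. NORAD was the highest of the 10 in both groups, at 99.4 ± 7.81 and 136 ± 1.46. PVT1 and HOTAIR lay near each other, at 1.68 ± 0.376 and 1.60 ± 0.0829 in control, and did not differ beyond their spread. KCNQ1OT1, FTX and JPX had 0.223 ± 0.0731, 0.215 ± 0.0258 and 0.185 ± 0.0168 in control, and H19 lay at 0.447 ± 0.161. The spread of KCNQ1OT1 took in the means of FTX and JPX, while FTX lay above JPX by more than the SD of either. In HSD52_OE KCNQ1OT1 reached 0.755 ± 0.0126 CPM per kb, above FTX at 0.394 ± 0.0263 and JPX at 0.194 ± 0.0358.

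The 10 RNAs summed to 747, 703 and 756 CPM in control and to 1599, 1619 and 1372 in HSD52_OE. NORAD made up 72.2 ± 3.37% of this sum in control and 47.8 ± 4.43% in HSD52_OE, while the share of MALAT1 went from 8.55 ± 1.70% to 22.0 ± 3.21% and that of NEAT1 from 13.3 ± 1.11% to 23.6 ± 1.54%. Without NORAD the sum went from 204 ± 19.6 to 803 ± 136 CPM, a ratio of 3.93. MALAT1 and NEAT1 together took 1.80 ± 0.0999% of the counts of all long non-coding RNA genes in control and 5.49 ± 0.904% in HSD52_OE. These sums carry no test, since the genes were chosen with earlier results known. They count RNA held by the poly-T beads, so the shares need not be those in the cells.

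**Figure D4:**
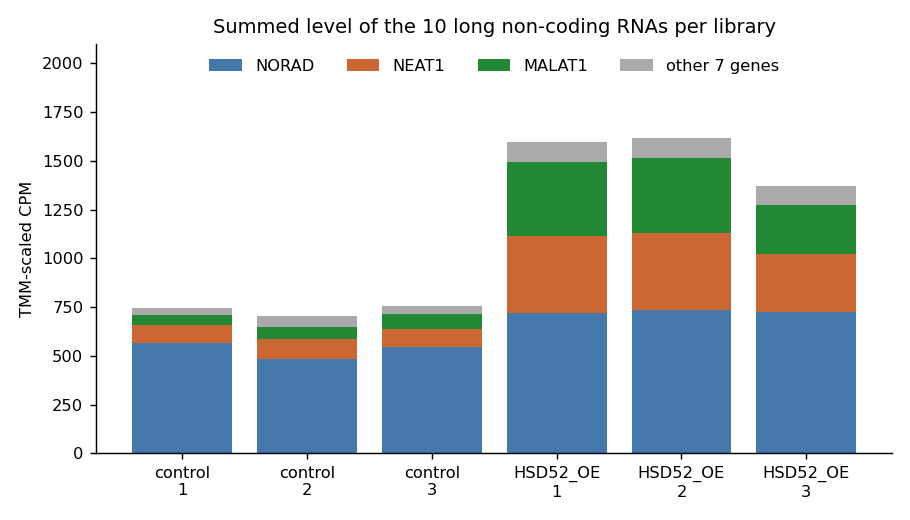
Stacked TMM-scaled CPM of NORAD, NEAT1, MALAT1 and the other 7 RNAs in each library. The sum was 703 to 756 CPM in control and 1372 to 1619 in HSD52_OE, and HSD52_OE replicate 3 has the smallest MALAT1 and NEAT1 segments of its group.

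Among the imprinted RNAs, KCNQ1OT1 rose and neither H19 nor MEG3 did. KCNQ1OT1 (ENSG00000269821, chr11:2608328-2699994, minus strand, antisense to KCNQ1) held 14.7, 27.8 and 18.9 CPM in control and 70.6, 68.5 and 68.7 in HSD52_OE. The 3 HSD52_OE libraries lay close together and far above the highest control library, which was replicate 2. The mean went from 20.4 ± 6.70 to 69.2 ± 1.15 CPM, a log2 fold change of 1.76 ± 0.18 with a 95% interval of 1.37 to 2.15 (adjusted p = 1.67e-05). KCNQ1, the potassium channel gene on the other strand, had 3 counts in 1 library of each group and 0 in the rest. The exons of KCNQ1OT1 share 1.23% of their bases with other genes.

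Of the 10 genes tested within 500 kb of KCNQ1OT1, 0 rose, 4 fell and 6 were not called. Over all genes 25.0% were called higher and 25.6% lower. The median of the 10 genes was -0.33 on the log2 scale. Neither an unadjusted p under 0.05 nor DESeq2 called any of these 10 higher. PHLDA2, an imprinted regulator of placental growth, held 1206, 1617 and 1419 counts in control and 584, 630 and 671 in HSD52_OE. Its 2 groups did not overlap and it fell by 1.29 on the log2 scale (adjusted p = 1.40e-07). OSBPL5, NAP1L4 and CD81 fell by 0.59, 0.34 and 0.40. CDKN1C, the imprinted cell cycle inhibitor p57, had a log2 fold change of -0.24 ± 0.16 (adjusted p = 0.211) and SLC22A18 one of -0.32 ± 0.14 (adjusted p = 0.0623), and neither was called.

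H19 (ENSG00000130600, chr11:1995176-2001470, minus strand), an imprinted RNA of fetal tissue that also hosts miR-675, held 22, 31 and 15 counts in control and 11, 63 and 6 in HSD52_OE. HSD52_OE replicate 2 had the highest value of all 6 libraries and the other HSD52_OE libraries had the lowest pair. The log2 fold change was 0.11 ± 0.77, with an interval of -1.69 to 1.90 (adjusted p = 0.922). Without HSD52_OE replicate 2 it was -1.52 (adjusted p = 0.0220), a call that no other setting gave, and the sign was also negative without control replicate 3 (-0.14). Of the 10 genes tested within 500 kb of H19, 5 rose and 2 fell, beside 25.0% of all genes called higher and 25.6% lower. IFITM10 was among the 5 genes near H19 that rose, by 1.31 (adjusted p = 0.000522), and DUSP8, a MAP kinase phosphatase gene, fell by 0.84 (adjusted p = 0.000736).

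MEG3 (ENSG00000214548, chr14:100779410-100861031, plus strand), an imprinted RNA described as a growth suppressor in glioma, had 0 counts in all 6 libraries. With a floor of 3 counts this allows a level of up to 0.152 to 0.175 CPM per library, counting error only. Of the 4 genes tested within 500 kb of MEG3, WARS and SLC25A29 fell by 0.25 and 0.29 on the log2 scale and WDR25 and BEGAIN were not called. Among all genes tested, 25.0% were called higher and 25.6% lower.

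In the X-inactivation centre, FTX rose and JPX was not called. FTX (ENSG00000230590, chrX:73946555-74293574, minus strand, lincRNA), an activator of XIST in mouse cells, held 5.84, 6.94 and 5.55 CPM in control and 12.1, 11.0 and 10.6 in HSD52_OE. The groups did not overlap, and the mean went from 6.11 ± 0.736 to 11.2 ± 0.749 CPM. The log2 fold change was 0.88 ± 0.14 with an interval of 0.57 to 1.18 (adjusted p = 0.000135), larger than that of 62.2% of long non-coding RNA genes tested.

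JPX (ENSG00000225470, chrX:73944184-74070408, plus strand, lincRNA), known for relieving CTCF from the XIST promoter, held 39, 48 and 45 counts in control and 59, 48 and 44 in HSD52_OE. The groups overlapped and the log2 fold change was 0.07 ± 0.23, with an interval of -0.41 to 0.56 (adjusted p = 0.810). Changes of up to about that upper bound cannot be told from no change here. FTX and JPX lie on opposite strands, and 83.6% of the exonic bases of JPX and 44.3% of those of FTX are shared with another gene. How the counting treated strand is not given in the sources used here, so reads from the shared bases cannot be told apart and both values are uncertain.

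Other genes of this centre rose with FTX. Of the 6 genes tested within 500 kb of FTX, 3 rose, 1 fell and 2 were not called. Over all genes 25.0% were called higher and 25.6% lower. The window is centred on base 73946555, where FTX transcription ends. XIST had a log2 fold change of 2.22 (adjusted p = 4.58e-06), and CHIC1, a membrane protein gene on the far side of XIST, rose by 0.98 (adjusted p = 3.72e-05). Z83843.1, annotated as a sense intronic transcript inside FTX, held 7, 17 and 12 counts in control and 82, 78 and 88 in HSD52_OE, a log2 fold change of 2.65 (adjusted p = 2.33e-06). The share of all counts in sense intronic genes moved in the same direction as Z83843.1, from 0.0210 ± 0.00143% in control to 0.0387 ± 0.00189% in HSD52_OE, and its part in the intronic value was not tested.

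NORAD (ENSG00000260032, chr20:36045622-36050960, minus strand, a single exon), which keeps genome stability by sequestering Pumilio proteins, had the highest CPM of the 10. Selection was on poly-T beads, so this need not be the order in the cells. The libraries held 565, 484 and 543 CPM in control and 720, 735 and 725 in HSD52_OE. All HSD52_OE libraries lay above all control libraries and within a narrow band. The mean went from 531 ± 41.7 to 727 ± 7.78 CPM, a 1.37-fold rise and a log2 fold change of 0.45 ± 0.09 (adjusted p = 0.000773). This is below the median of the long non-coding RNA genes tested, and 42.7% of them had a smaller value. The exons of NORAD share no base with another gene, so overlap does not bear on its counts.

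Among the partners of NORAD, PUM2 was not called. It held 2226 to 2557 counts in control and 2488 to 2808 in HSD52_OE, with a log2 fold change of 0.02 ± 0.08 (adjusted p = 0.875) whose sign depended on the setting. RBMX, a further partner described for NORAD, rose by 0.29 (adjusted p = 0.00915), and KHDRBS1, the SAM68 protein that helps NORAD hold the Pumilio proteins, fell by 0.22 (adjusted p = 0.0311). The RBMX call was at an adjusted p of 0.0504 without HSD52_OE replicate 2, and the KHDRBS1 call was lost when any 1 of the HSD52_OE libraries was left out (adjusted p = 0.0851 to 0.145). Around NORAD 2 of 13 genes tested rose and 7 fell, beside 25.0% of all genes called higher and 25.6% lower. Among these neighbours RBM39, a splicing factor gene, was higher by 0.40, and DLGAP4 fell by 0.62.

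PVT1 (ENSG00000249859, chromosome 8, plus strand), an oncogenic RNA next to MYC, held 155, 200 and 131 counts in control and 224, 237 and 201 in HSD52_OE. In CPM, control replicate 2 (11.4) lay above HSD52_OE replicate 3 (10.2), so the groups overlapped. The log2 fold change was 0.32 ± 0.16, with an interval of -0.02 to 0.66 (adjusted p = 0.106). Without control replicate 2 it was 0.49 (adjusted p = 0.0186), and over library totals alone 0.45 (adjusted p = 0.0254). MYC, which PVT1 RNA is described as stabilising at the protein level, held 209 to 272 counts in control and 208 to 277 in HSD52_OE and was not called (log2 fold change -0.18 ± 0.15, adjusted p = 0.330).

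HOTAIR (ENSG00000228630, chr12:53962308-53974956, minus strand, antisense), described as a guide of PRC2 and KDM1A to chromatin, held 67, 74 and 78 counts in control and 88, 94 and 64 in HSD52_OE. HSD52_OE replicate 3 lay below all control libraries in CPM and the other 2 lay above them. The log2 fold change was 0.05 ± 0.20, with an interval of -0.37 to 0.46 (adjusted p = 0.861), and its sign changed when single libraries were left out.

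The cluster around HOTAIR holds 9 HOXC genes that were tested, and the difference between HOTAIR and these genes was not tested. Of these 9, 6 fell, against 25.6% of all genes. HOXC13 held 331, 353 and 383 counts in control and 198, 188 and 192 in HSD52_OE, and it fell by 1.01 on the log2 scale (adjusted p = 4.22e-06). HOXC12, HOXC10, HOXC6, HOXC8 and HOXC9 fell by 0.58, 0.53, 0.43, 0.41 and 0.38. HOXC11, which overlaps HOTAIR on the other strand, had a log2 fold change of 0.01 ± 0.17, and HOXC4 and HOXC5 were at 0.19 ± 0.13 and -0.40 ± 0.33. None of these 3 was called. The groups of HOXC12 overlapped, and its call was lost under 9 of the 14 alternative fits. That of HOXC8 was lost without HSD52_OE replicate 1 (adjusted p = 0.103), and with library totals alone HOXC8 and HOXC9 were not called (adjusted p = 0.0934 for HOXC8 and 0.06999 for HOXC9).

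Genes that act with these RNAs were read from lists of known partners. Among 25 paraspeckle protein genes 7 rose, 7 fell and 11 were not called, and their median was 0.04 on the log2 scale. Over all genes 25.0% were called higher and 25.6% lower. The core paraspeckle proteins SFPQ and NONO, without which NEAT1 is unstable, had -0.13 ± 0.09 (adjusted p = 0.271) and -0.17 ± 0.09 (adjusted p = 0.131), and PSPC1, the third core member, fell by 0.37 (adjusted p = 0.00180). RBM3, a cold-inducible RNA-binding protein, rose by 1.05 and HNRNPH1 by 0.49. RBM14, which bridges paraspeckle subunits, fell by 0.59, and SMARCA4, a chromatin remodeller, by 0.47. Without HSD52_OE replicate 2 the number that rose was 4, and without control replicate 3 NONO was called lower at -0.22 (adjusted p = 0.0169).

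Of 23 genes for nuclear speckle proteins, the neighbours of MALAT1, 10 rose, 3 fell and 10 were not called, with a median of 0.11. Of all genes 25.0% were called higher and 25.6% lower, and with a fold of 2 added 1 speckle gene was higher. BCLAF1 held 2193, 2091 and 2378 counts in control and 4611, 5094 and 4696 in HSD52_OE, a rise of 0.99 on the log2 scale (adjusted p = 2.99e-07). SRSF5, a splicing factor, and the CLK4 and CLK1 kinases, which phosphorylate such factors, rose by 0.999, 1.03 and 0.89. SRSF1 and SRSF2, the factors most often described as bound by MALAT1, had -0.03 ± 0.08 and 0.14 ± 0.08 and were not called, nor were the speckle scaffold gene SON at 0.03 and METTL16, which binds the MALAT1 triple helix, at -0.16 ± 0.09.

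**Figure D5:**
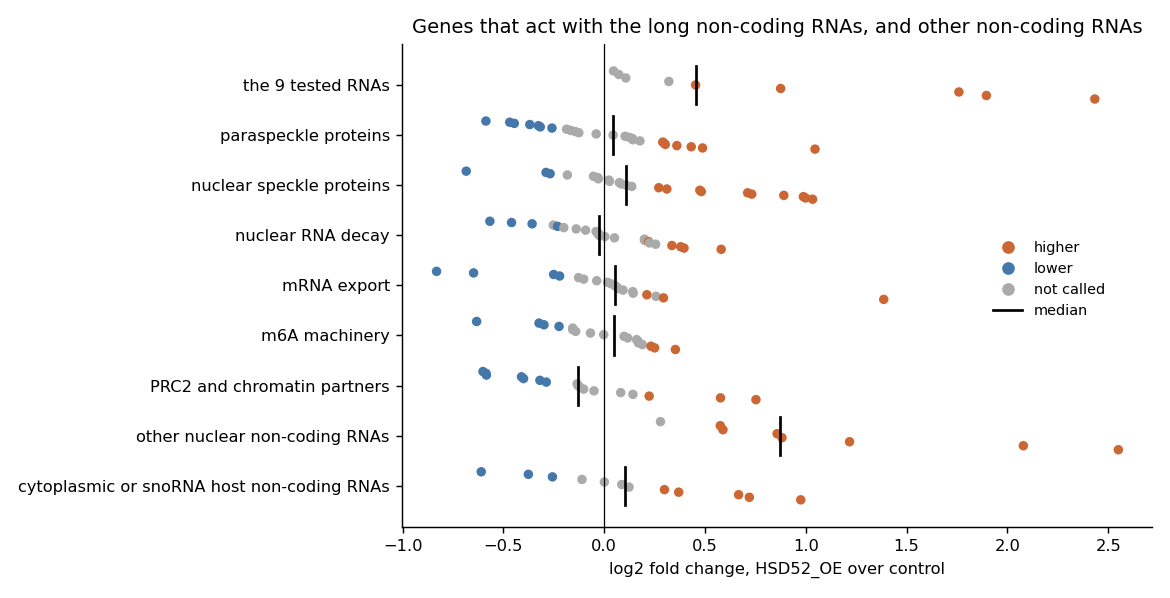
Log2 fold change of each tested gene in lists of partners and of other non-coding RNAs, coloured by call, with a black bar at the median of each list. The medians of the protein lists lie between -0.13 and 0.11, and that of the other nuclear non-coding RNAs at 0.87.

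The machinery that cuts, degrades and exports RNA was mixed in direction, and over all genes 25.0% were called higher and 25.6% lower. Of 23 genes of nuclear RNA decay 5 rose and 4 fell. The exosome subunit genes EXOSC3 and EXOSC7 fell by 0.57 and 0.46, ZFC3H1, a subunit of the PAXT complex that directs nuclear polyadenylated RNA to decay, rose by 0.40, and NRDE2, which restrains the helicase MTREX, rose by 0.58. MTREX itself (-0.03 ± 0.08) and EXOSC10 (0.00 ± 0.08) were not called. Of 12 tested genes of RNase P and tRNA end processing (13 listed) 2 rose, RPP14 and TRNT1 by 0.43 and 0.45, and RPP25L fell by 0.38. Of 19 tested messenger RNA export genes (21 listed) 3 rose and 4 fell. DDX39B, the helicase UAP56, was higher by 1.39 (adjusted p = 4.41e-06) and NXT1 and ALYREF were lower by 0.83 and 0.65. THOC2, the scaffold of the THO complex, rose by 0.29. THOC2 lost its call without HSD52_OE replicate 1 or 2 (adjusted p = 0.0602 and 0.0544) and RPP25L without HSD52_OE replicate 1 (adjusted p = 0.0729).

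Chromatin and m6A partners were also split, and over all genes 25.0% were called higher and 25.6% lower. Of 17 genes of PRC2 and other chromatin partners 3 rose and 7 fell, with a median of -0.13. EZH2, the catalytic subunit of PRC2, rose by 0.22 (adjusted p = 0.0441), a call that was lost when any 1 of the HSD52_OE libraries or control replicate 1 was left out (adjusted p = 0.0753 to 0.184), and with no filter beyond 1 count (adjusted p = 0.150). PHF19 and AEBP2, accessory PRC2 subunits, rose by 0.75 and 0.58, and SUZ12 and EED were not called at -0.13 ± 0.08 and -0.12 ± 0.11. KDM1A, the demethylase described as bound by HOTAIR, fell by 0.60 (adjusted p = 1.64e-05), EHMT1 fell by 0.58, and CTCF, the partner of JPX, was at -0.13 ± 0.08 and not called. ELAVL1, an RNA-stabilising protein, fell by 0.54. Of 18 genes that write, erase or read the m6A mark 3 rose and 4 fell. METTL3, the methyltransferase, rose by 0.35, and FTO, a demethylase, RBM15B and the reader YTHDF1 fell by 0.63, 0.32 and 0.30.

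Among 15 other listed long non-coding RNAs known from the nucleus, 8 passed the filter on low counts and 4 had no counts. Of the 8 tested, 7 rose, 0 fell and 1 was not called, with a median of 0.87. Over all long non-coding RNA genes tested 43.3% were called higher and the median was 0.59. CDKN2B-AS1, the antisense RNA of the INK4 locus, held 19, 28 and 28 counts in control and 124, 119 and 103 in HSD52_OE, a rise of 2.08 (adjusted p = 2.00e-06). LINC-PINT, SOX2-OT and TUG1 rose by 1.22, 0.86 and 0.58. CDKN2B-AS1 and SOX2-OT overlap coding genes, so their counts are uncertain where strand was not used. Neither an unadjusted p under 0.05 nor DESeq2 called any of the 8 lower. Among 12 tested of 13 listed mostly cytoplasmic or snoRNA host RNAs 5 rose, 3 fell and 4 were not called, with a median of 0.10. SNHG12, ZFAS1 and SNHG1 rose by 0.97, 0.72 and 0.67, and SNHG16 fell by 0.61. The difference between these lists was not tested.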

How the data were processed

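RNA sequencing libraries from LN229 cells, 3 HSD52_OE and 3 control, were compared. The authors deposited unnormalized read counts for each gene. Per the submitters' processing notes, the tools were CASAVA, HISAT2 2.0.5 and featureCounts 1.5.0-p3 on hg38, with the annotation release and strand setting not given in the sources used here. Per the labels' protocols, messenger RNA was taken up on poly-T beads and random hexamers primed the cDNA. Of 58735 genes 58724 had the same ID, start and end in GENCODE 29, which was used for transcript sequences, and promoters and microRNAs came from RefSeq.

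Low counts were removed with filterByExpr, and the 16322 genes left were scaled by TMM and tested with edgeR 4.0.16 (quasi-likelihood, robust, 2-sided, R 4.3.3) on group alone, with Benjamini-Hochberg adjustment and a threshold of 0.05. The script was tested on simulated data in which 200 genes were changed, in both directions. Far more genes were called in the real libraries, so the simulation does not test the scaling at such a share. CPM is the count per 1000000 of the TMM-scaled library total, and values after ± are SDs of CPM or SEs of log2 fold changes. Library measures were compared by exact permutation. At this depth the library totals were 17777157 to 18917790, the intervals of log2 fold changes come from the edgeR fit and include the spread among libraries, and the floor given for MEG3 covers counting error only.

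The 10 genes, the gene lists and the tests were chosen with earlier results of these data known, and no list was tested as a set. All 10 genes are named whatever their values, with HSD52, their partners, overlapping or adjacent genes and imprinted partners, and up to 4 called genes of smallest p from each list. NXF1, THOC3 and other called genes beyond these appear in counts only, and some genes of the lists are not reported here by name. IFITM10, DUSP8, SLC25A29, WARS, WDR25, BEGAIN, RBM39, DLGAP4, MTREX, EXOSC10, SON, NES and GFAP were named after their values were seen. Alternatives were DESeq2 1.42.0, limma-voom (limma 3.58.1), RLE factors, TMM from protein-coding genes, library totals, 2 other filters, a fold of 2, a replicate block and each library left out.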

Additional observations from a re-analysis of the deposited data

How the results depend on the processing

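MALAT1, NEAT1, KCNQ1OT1, FTX and NORAD kept their direction and their call under all 14 alternative fits, with log2 fold changes of 2.28 to 2.61, 1.83 to 2.02, 1.55 to 2.04, 0.80 to 1.001 and 0.38 to 0.58 and a highest adjusted p of 0.0170 for MALAT1 under the replicate block. PVT1 was called under 2 of the 14, as given above. Library totals alone moved the median of all genes by 0.12, so part of each list count rests on the scaling.

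With a fold of at least 2 added, 1707 genes were higher and 570 lower. The count of higher genes among the 10 RNAs became 3, and for the other nuclear non-coding RNAs 3. For paraspeckle, speckle and export genes it became 1 higher and 0 lower each, and for decay, RNase P, m6A, PRC2 and cytoplasmic or host RNAs 0 in both directions. With library totals alone, paraspeckle genes were 12 higher and 4 lower, speckle genes 1 lower, decay genes 8 higher, RNase P genes 0 lower, export genes 5 higher and 2 lower, m6A genes 8 higher and 2 lower, and cytoplasmic or host RNAs 1 lower. With TMM from protein-coding genes, decay genes were 8 higher, export genes 2 lower and m6A genes 5 higher. With at least 1 CPM in 3 libraries export genes were 2 lower. With no filter beyond 1 count, RNase P genes were 2 lower, m6A genes 1 higher, HOXC11 was at -0.028 and PUM2 at -0.024. H19 was at -0.53 in limma-voom. The cause of these shifts was not tested.

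Leaving out 1 library at a time gave 0 to 1 of the 10 RNAs lower (H19, without HSD52_OE replicate 2), 4 to 8 paraspeckle genes higher, 2 to 6 decay genes higher, 2 to 4 RNase P genes higher and 0 to 3 lower, 1 to 4 export genes higher and 2 to 4 lower, 1 to 5 m6A genes higher and 1 to 4 cytoplasmic or host RNAs lower. The count without HSD52_OE replicate 2 was 4 for paraspeckle genes, 3 for decay genes, 1 for export genes and 1 for m6A genes that rose. Without HSD52_OE replicate 3, decay genes that rose were 2, m6A genes 1 and cytoplasmic or host RNAs that fell 1. Without HSD52_OE replicate 1, export and m6A genes that rose were 1 each and RNase P genes that fell 0. Without control replicate 1, decay genes that rose were 3, m6A genes 5 and RNase P genes that fell 2. RNase P genes that rose were 4 without control replicate 2 or 3, and 3 fell without the latter. Export genes that fell were 2 without HSD52_OE replicate 1 or 2 or control replicate 2. Log2 fold changes ranged from -1.52 to 0.58 for H19, -0.056 to 0.21 for HOTAIR, -0.12 to 0.11 for HOXC11, -0.086 to 0.17 for JPX and -0.034 to 0.047 for PUM2. The difference in the histone share ranged from -0.00025 to 0.000604 percentage points.

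Replicate numbers are not stated to pair libraries. Same-numbered libraries correlated at 0.0383, 0.0307 and 0.0328 in their deviations from the group means, each library best with its own number, which is a hint from the data and not the design. A replicate block gave 4210 genes higher and 4226 lower, 5 of the 10 RNAs higher and 0 lower, 2 RNase P genes lower, H19 at -0.20 and KHDRBS1 not called (adjusted p = 0.0590), and no other count given here moved by over 1.5 times. MEG3 had no counts, so this depth gives only an upper limit for it.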
